A study of Mus musculus with 12 samples.

Results

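The Wnt ligands, their frizzled receptors and Lrp co-receptors, the secreted antagonists of the pathway, and the target genes *Axin2* and *Lef1* were examined in sorted smooth muscle cells (SMCs) of the mouse thoracic aorta. Members were set by gene symbol, that is every Wnt, Fzd, Sfrp, and Dkk gene together with *Frzb*, *Wif1*, *Lrp5*, *Lrp6*, *Axin2*, and *Lef1*. The choice was made with earlier results of these data known. The members were 43 of the 52636 genes counted: 19 ligands, 10 frizzled receptors, 2 co-receptors, 10 antagonists, and 2 target genes. Bulk RNA-seq was performed on GFP-positive SMCs from 3 GFPiSMC and 3 Tgfbr1/2iSMCKO mice, with a library from the ascending aorta and arch and another from the descending thoracic aorta of each animal, 12 libraries in all. The question behind the comparison is how loss of both TGF-β receptors in SMCs changes their transcriptome.

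Every animal was male and on a C57BL/6J background, carried the tamoxifen-inducible *Myh11-CreERT2* transgene, which is active in SMCs and sits on the Y chromosome, and the *mT/mG* reporter, which turns on GFP after recombination. Tgfbr1/2iSMCKO mice carried in addition floxed alleles of *Tgfbr1* and *Tgfbr2*, and GFPiSMC mice carried no floxed alleles, so that mouse line and deletion cannot be told apart. All mice received tamoxifen for 5 days and were analyzed at 12 weeks of age. By the study's methods, it was given at 2 mg/d from 11 weeks of age, so that cells were taken about 1 week after deletion began. The sample labels also name 1 mg/d at 4 weeks of age, the schedule of a subgroup. Levels are given as CPM (counts divided by the library total and scaled to a common total, with TMM factors), and per kilobase of exon where genes are compared with each other. "Past the thresholds" means that edgeR's quasi-likelihood test against no change, adjusted over 22320 genes, gave p under 0.05, and that the estimated change was beyond 2-fold. Values with ± are mean ± SD of 3 libraries, 1 per animal.

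In the canonical branch of the pathway, a Wnt ligand brings together a frizzled receptor and Lrp5 or Lrp6, β-catenin escapes degradation, and it switches on genes such as *Axin2* with factors such as Lef1. Other ligands, of which Wnt5a is the best known, act through frizzled receptors and Ror kinases without β-catenin. Secreted frizzled-related proteins and Wif1 bind the ligands outside the cell, whereas most Dickkopf proteins bind the co-receptors, and in the vessel wall the pathway is known for its part in SMC growth and in calcification.

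Total counts ranged from 20467027 to 31392396 per library. Smooth muscle markers summed to 33900 to 47900 CPM, against at most 256 CPM for fibroblast, 107 for endothelial, 26.9 for macrophage, and 136 for adipocyte markers. The deleted genes were present at 196 to 295 CPM (*Tgfbr1*) and 68.2 to 128 CPM (*Tgfbr2*), overlapped between genotypes, and missed the threshold (edgeR adjusted p = 0.790 and 0.233). A count per gene does not tell deleted exons from the others, so this does not measure recombination. The 3 libraries of highest GC content are called below those that stood apart. They were both Tgfbr1/2iSMCKO replicate 3 libraries and the descending GFPiSMC replicate 2 library. These had 48.49% to 48.6% GC and 2.39% to 2.99% mitochondrial counts, against 47.59% to 48.4% and 3.47% to 4.98% in the other 9. The set was drawn by GC rank, and in GC content its lower edge was close to the next library (48.49% against 48.4%). All 3 were kept.

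Of the 43 members, 34 passed the filter on low counts. *Wnt1*, *Wnt2*, *Wnt3*, *Wnt3a*, *Wnt7a*, *Wnt8b*, *Wnt10a*, *Wnt10b*, and *Dkk4* did not, with at most 18 counts in any library. Between genotypes, 8 of the 34 had an adjusted p under 0.05 (23.5%), against 5.03% of all genes tested, with 6 lower (3.23% of all genes) and 2 higher (1.8% of all genes) in Tgfbr1/2iSMCKO SMCs. At an unadjusted p under 0.05 there were 10, against 16.1% of all genes. In 5 members, *Fzd1*, *Lrp6*, *Wnt5b*, *Fzd5*, and *Wnt5a*, no library of one genotype reached the other, against 4.39% of all genes. Past the thresholds were 5 of the 34, against 2.67% of all genes: *Wif1*, *Frzb*, and *Wnt5b* were lower, and *Wnt5a* and *Fzd5* were higher. *Fzd1*, *Fzd8*, and *Lrp6* were lower by less than 2-fold. The median log2 fold change of the 34 was -0.04, beside 0.04 for all genes. These tests took an animal's 2 libraries as separate units. With counts summed per animal, 5 members had an edgeR adjusted p under 0.05, beside 451 of 24275 genes.

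**Figure D1:**
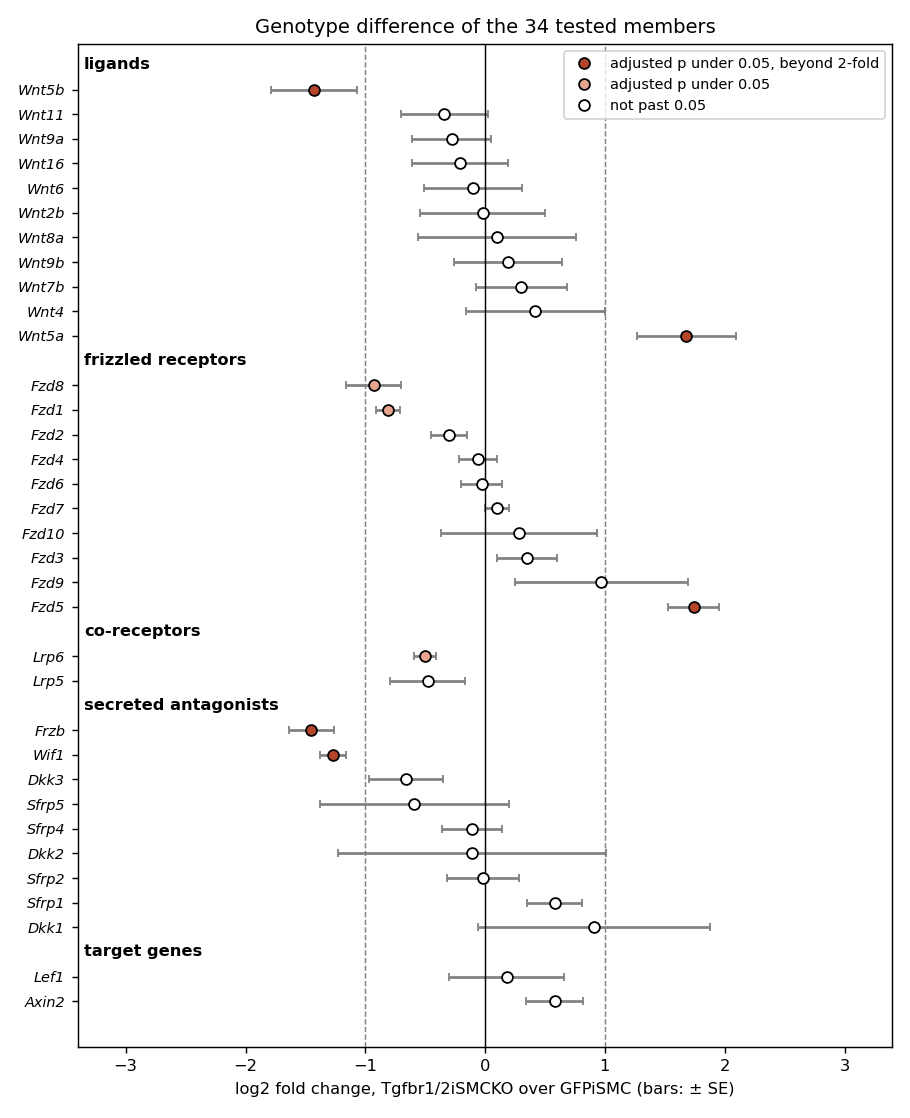
Log2 fold change between genotypes (x axis, Tgfbr1/2iSMCKO over GFPiSMC, 12 libraries) for each of the 34 tested members, grouped by role. Bars are ± SE, dashed lines mark a 2-fold change, and filled points have an adjusted p under 0.05. *Wnt5a* and *Wnt5b* lie on opposite sides, and the filled points run from -1.45 for *Frzb* to 1.74 for *Fzd5*.

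The genes that carried the genotype difference most steadily were *Wif1*, *Fzd1*, *Fzd5*, and *Frzb*. To show their control regions, 200 bases that end 50 bases before the RefSeq start were read for the first 3 from RefSeq's promoter windows on GRCm38.p6, which cover 29 of the 43 members. The *Frzb* window overlaps an annotated exon and is not shown. Sequences run 5′ to 3′ on the gene's strand in lower case. Capitals mark the letters CAGAC, the short site read by Smad factors, and CTTTGA, the core of TCF/LEF sites, on either strand (GTCTG and TCAAAG on the reverse); the motifs share no bases where found.
Wif1 (chr10:121033754-121033953, + strand): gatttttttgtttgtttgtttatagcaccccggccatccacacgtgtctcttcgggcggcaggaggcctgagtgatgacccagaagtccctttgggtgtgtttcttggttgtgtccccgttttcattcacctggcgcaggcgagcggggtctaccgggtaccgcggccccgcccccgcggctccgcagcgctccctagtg
Fzd1 (chr5:4758267-4758466, - strand): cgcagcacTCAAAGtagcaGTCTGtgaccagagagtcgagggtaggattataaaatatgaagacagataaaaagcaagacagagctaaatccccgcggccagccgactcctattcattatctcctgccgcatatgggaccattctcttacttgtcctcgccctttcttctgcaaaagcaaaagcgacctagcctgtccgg
Fzd5 (chr1:64737801-64738000, - strand): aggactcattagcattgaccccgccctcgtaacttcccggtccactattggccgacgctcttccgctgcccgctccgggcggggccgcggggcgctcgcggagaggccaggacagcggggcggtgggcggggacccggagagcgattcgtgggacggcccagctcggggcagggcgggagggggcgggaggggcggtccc

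The *Fzd1* window held 1 match to each motif, and those of *Wif1* and *Fzd5* held neither. Among all 32851 promoter windows of this length, 35.8% held CAGAC and 11.8% held CTTTGA. The windows also differed in base composition, with 49.0% GC and 9 CG dinucleotides for *Fzd1*, 61.0% and 16 for *Wif1*, and 75.0% and 25 for *Fzd5*, beside medians of 51.5% and 4 over all windows. These are matches of letters, with no measurement of binding.

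Few Wnt ligands were expressed at more than a trace. Per kilobase of exon, *Wnt16* ranked first (6.87 CPM per kb over the 12 libraries), followed by *Wnt5a* (3.48), *Wnt9a* (1.64), and *Wnt5b* (0.743), and all other ligands lay at 0.302 or below. By group, *Wnt16* made up 42.9 ± 1.76% and 58.8 ± 19.65% of summed ligand levels in ascending/arch and descending GFPiSMC SMCs. In Tgfbr1/2iSMCKO SMCs it made up 40.2 ± 12.4% and 39.8 ± 6.4%. *Wnt5a* made up 18.6 ± 5.79% and 11.0 ± 11.6% in GFPiSMC SMCs, where *Wnt9a* had 14.2 ± 4.4% and 11.6 ± 1.79%. In Tgfbr1/2iSMCKO SMCs *Wnt5a* made up 35.1 ± 6.36% and 36.6 ± 1.72%. Shares in descending GFPiSMC libraries ran from 39.95% to 79.2% for *Wnt16* and from 0.866% to 23.7% for *Wnt5a*. The 79.2% and the 0.866% both came from replicate 2, a library that stood apart. Ligand transcripts were sparse beside those of the receptors and antagonists: summed per kilobase, the 19 ligands reached 9.27 to 22.3 CPM per kb in a library, the 10 frizzled receptors 65.8 to 91.3, and the 10 antagonists 108 to 521.

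*Wnt5a* (ENSMUSG00000021994.15, GRCm38 chromosome 14, 28504750 to 28527448) encodes the ligand best known for signaling without β-catenin. Its level in replicates 1, 2, and 3 was 13.1, 21.3, and 17.2 CPM in ascending/arch and 9.90, 1.51, and 17.2 CPM in descending GFPiSMC SMCs, and 41.9, 41.7, and 44.2 CPM in ascending/arch and 34.7, 30.3, and 53.6 CPM in descending Tgfbr1/2iSMCKO SMCs. All 6 Tgfbr1/2iSMCKO libraries lay above all 6 GFPiSMC libraries, and the low value of 1.51 CPM rested on 43 counts in a library that stood apart. The rise was 3.20-fold (log2 fold change 1.68, SE 0.41, edgeR adjusted p = 0.0315). Without the 3 libraries that stood apart it was smaller and kept its call (1.26, adjusted p = 0.00733), whereas the call was lost when GFPiSMC replicate 1 or 3 or any of the Tgfbr1/2iSMCKO animals was left out (adjusted p = 0.0588 to 0.168). Within a segment it did not pass (1.31, SE 0.58, adjusted p = 0.411 in ascending/arch and 2.05, SE 0.59, 0.143 in descending SMCs).

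*Wnt5b* (ENSMUSG00000030170.14, chromosome 6, 119432531 to 119544347), a close relative of *Wnt5a*, changed in the opposite direction at a far lower level. GFPiSMC SMCs had 4.69, 3.06, and 2.93 CPM in ascending/arch and 3.03, 1.79, and 1.81 CPM in descending libraries, and Tgfbr1/2iSMCKO SMCs 1.61, 1.60, and 0.580 CPM and 1.16, 0.330, and 1.08 CPM. The genotypes did not overlap, on counts of 8 to 128 per library. The log2 fold change was -1.43 (SE 0.36, edgeR adjusted p = 0.0376), and the call was lost with any animal left out (adjusted p = 0.0724 to 0.198), without the 3 libraries that stood apart (0.0907), with counts summed per animal (0.105), with scaling by library size only (0.0561), and with every gene of at least 1 count kept (0.0677). *Wnt5b* overlaps *Fbxl14* on the opposite strand, which had 184 to 609 counts, and if counting did not use strand, which is not stated, the reads of such a pair cannot be told apart.

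*Wnt16* (ENSMUSG00000029671.15, chromosome 6, 22288227 to 22298522), another ligand, varied mainly between libraries. It stood at 24.3, 19.6, and 23.6 CPM in ascending/arch and 36.9, 76.8, and 16.2 CPM in descending GFPiSMC SMCs, and at 14.3, 32.9, and 39.2 CPM and 18.4, 16.5, and 40.6 CPM in Tgfbr1/2iSMCKO SMCs of these segments. The highest values, 39.2 to 76.8 CPM, were those of the 3 libraries that stood apart, and the other 9 reached at most 36.9 CPM. The genotype difference did not pass the test (log2 fold change -0.21, SE 0.40, edgeR adjusted p = 0.889).

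*Wnt9a* (chromosome 11, 59306928 to 59333552) was the remaining ligand above 1 CPM per kb. Its levels were 7.74, 3.57, and 5.99 CPM and 6.56, 8.76, and 3.01 CPM in GFPiSMC SMCs and 5.15, 4.76, and 7.60 CPM and 4.51, 2.14, and 5.67 CPM in Tgfbr1/2iSMCKO SMCs, ascending/arch before descending. The genotypes overlapped (log2 fold change -0.28, SE 0.33, edgeR adjusted p = 0.798). The other 7 tested ligands, *Wnt2b*, *Wnt4*, *Wnt6*, *Wnt7b*, *Wnt8a*, *Wnt9b*, and *Wnt11*, had no more than 46 counts in a library, and none passed the test.

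**Figure D2:**
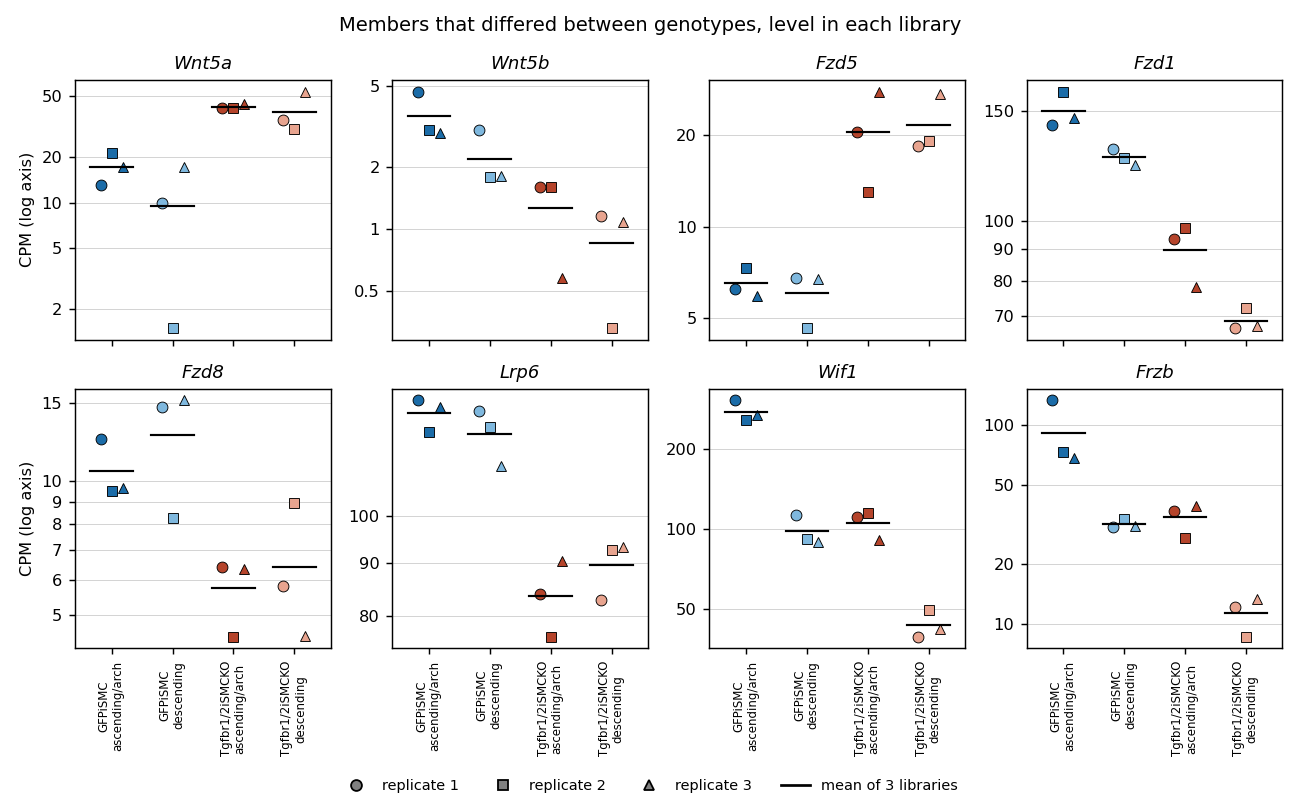
Level in each library (y axis, CPM, log scale) of the 8 members with an adjusted p under 0.05 between genotypes; symbols mark the replicate and horizontal lines the mean of 3 libraries. *Wnt5a* and *Fzd5* are higher in Tgfbr1/2iSMCKO SMCs in every library, while *Wif1* and *Frzb* step down with genotype and with segment.

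The receptor repertoire was led by *Fzd1*, *Fzd7*, and *Fzd2*, at 25.9, 22.5, and 16.2 CPM per kb over all libraries, followed by *Fzd4* (4.80), *Fzd6* (3.84), *Fzd5* (1.98), *Fzd8* (1.48), and *Fzd3* (1.02). *Fzd9* and *Fzd10* were near the limit of detection, with at most 38 and 15 counts. No test was made between genes. Mean ± SD per kilobase overlapped in at least 1 of the 4 groups for each pair of neighbors in this order, except between *Fzd2* and *Fzd4* and between *Fzd5* and *Fzd8*. The order of the last pair turned with genotype: *Fzd5* was below *Fzd8* in GFPiSMC SMCs (0.943 against 1.76 CPM per kb in ascending/arch and 0.877 against 2.13 in descending) and above it in Tgfbr1/2iSMCKO SMCs (2.96 against 0.961 and 3.13 against 1.07).

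*Fzd1* (ENSMUSG00000044674.6, chromosome 5, 4753839 to 4758035), whose promoter sequence is given above, was the most abundant receptor in GFPiSMC SMCs. Levels there were 143, 162, and 146 CPM in ascending/arch and 131, 126, and 123 CPM in descending libraries, and in Tgfbr1/2iSMCKO SMCs 93.5, 97.3, and 78.2 CPM and 67.1, 72.2, and 67.5 CPM. No Tgfbr1/2iSMCKO library reached the lowest GFPiSMC library. The fall was 1.75-fold (log2 fold change -0.81, SE 0.10, edgeR adjusted p = 0.000178) and passed an adjusted p of 0.05 in ascending/arch (-0.74, SE 0.14, 0.0195) and in descending SMCs (-0.88, SE 0.14, 0.0065).

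*Fzd7* (ENSMUSG00000041075.8, chromosome 1, 59482424 to 59486955) had similar mean levels in both genotypes. It was at 118, 101, and 83.3 CPM and 97.8, 100.4, and 90.1 CPM in GFPiSMC SMCs and at 109.6, 106, and 105 CPM and 99.7, 107, and 105 CPM in Tgfbr1/2iSMCKO SMCs. The genotypes overlapped, with a log2 fold change of 0.10 (SE 0.10, edgeR adjusted p = 0.752). Per kilobase of exon, *Fzd1* exceeded *Fzd7* in 6 of 6 GFPiSMC libraries (ratio 1.31 to 1.90) and in 0 of 6 Tgfbr1/2iSMCKO libraries (0.695 to 0.988), a description chosen after the values were seen.

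**Figure D3:**
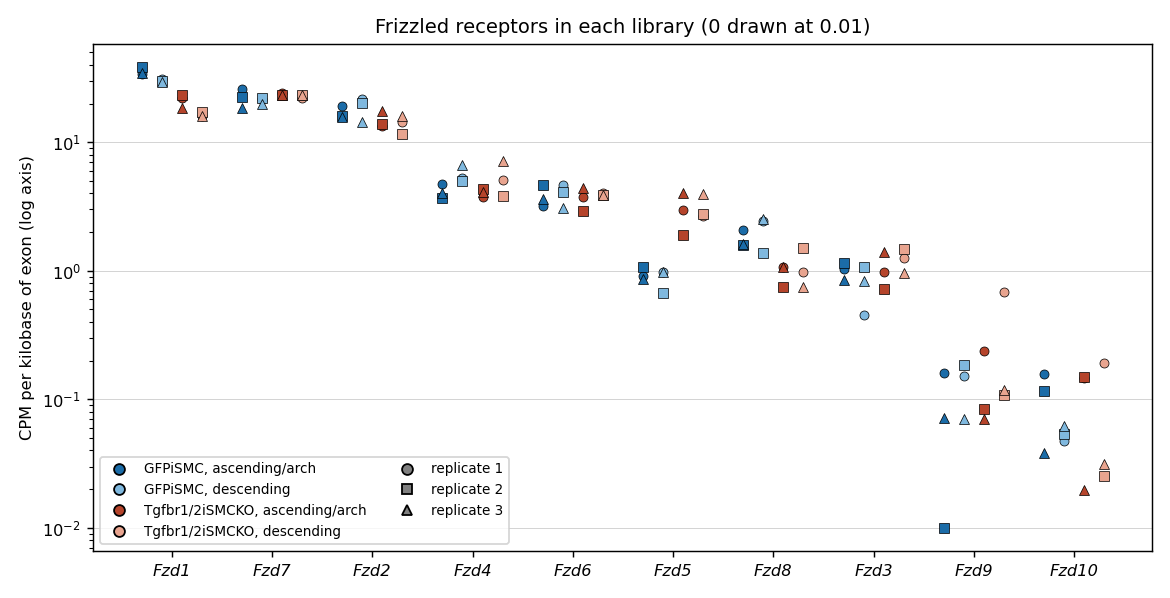
Frizzled receptors in every library (y axis, CPM per kilobase of exon, log scale), colored by genotype and segment and ordered by overall level, with 0 drawn at 0.01. *Fzd1* falls below *Fzd7* in the Tgfbr1/2iSMCKO libraries, and *Fzd5* rises from a mean of 0.943 and 0.877 to 2.96 and 3.13 CPM per kb in ascending/arch and descending SMCs.

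*Fzd5* (ENSMUSG00000045005.9, chromosome 1, 64730558 to 64737751) was the only one of the 10 receptors whose rise by genotype passed the test. GFPiSMC SMCs had 6.27, 7.35, and 5.95 CPM in ascending/arch and 6.79, 4.66, and 6.75 CPM in descending libraries, and Tgfbr1/2iSMCKO SMCs 20.5, 13.1, and 27.8 CPM and 18.4, 19.2, and 27.4 CPM. The lowest Tgfbr1/2iSMCKO library thus lay above the highest GFPiSMC library, at 7.35 CPM. The rise was 3.35-fold (log2 fold change 1.74, SE 0.21, edgeR adjusted p = 0.00025), with 1.65 (SE 0.31, adjusted p = 0.0201) in ascending/arch and 1.84 (SE 0.31, 0.00945) in descending SMCs. The highest values came from Tgfbr1/2iSMCKO replicate 3, and without the 3 libraries that stood apart the log2 fold change was 1.41 (adjusted p = 0.00272). Another annotated gene on the opposite strand, *Gm38058*, overlaps it with 14 to 51 counts.

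*Fzd8* (ENSMUSG00000036904.5, chromosome 18, 9212163 to 9218136) was lower and overlapped between genotypes. Its levels were 12.5, 9.51, and 9.67 CPM and 14.7, 8.27, and 15.2 CPM in GFPiSMC SMCs and 6.42, 4.46, and 6.35 CPM and 5.80, 8.95, and 4.49 CPM in Tgfbr1/2iSMCKO SMCs, ascending/arch before descending. The overlap came from the replicate 2 libraries of the descending segment. The log2 fold change was -0.93 (SE 0.23, edgeR adjusted p = 0.0300), and the call was lost with counts summed per animal (0.150), with the animal as a random effect in limma-voom (0.0581), with the replicate block (0.0593), with scaling by library size only (0.0680), with every gene of at least 1 count kept (0.0633), and when GFPiSMC replicate 1 or 3 or Tgfbr1/2iSMCKO replicate 1 or 3 was left out (0.0774 to 0.171). *Fzd2*, *Fzd3*, *Fzd4*, and *Fzd6*, the other receptors at 1 CPM per kb or more, had log2 fold changes from -0.30 to 0.35 and adjusted p values of 0.339 or above. *Fzd9* and *Fzd10*, on few counts, had 0.97 (SE 0.72, edgeR adjusted p = 0.617) and 0.28 (SE 0.65, 0.917).

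The co-receptor that dominates in these cells, *Lrp6* (ENSMUSG00000030201.15, chromosome 6, 134446476 to 134566965), was measured with little spread. It was at 129, 120.2, and 127 CPM and 126, 122, and 112 CPM in GFPiSMC SMCs and at 84.0, 76.5, and 90.4 CPM and 82.9, 92.6, and 93.3 CPM in Tgfbr1/2iSMCKO SMCs. All Tgfbr1/2iSMCKO libraries lay below all GFPiSMC libraries, a fall of 1.42-fold (log2 fold change -0.50, SE 0.09, edgeR adjusted p = 0.00612). With counts summed per animal the adjusted p was 0.151, and it was 0.0702 and 0.0669 without GFPiSMC or Tgfbr1/2iSMCKO replicate 1. *Lrp5* (0.815 CPM per kb, against 7.65 for *Lrp6*) reached 19.4 CPM in the descending GFPiSMC replicate 2 library that stood apart and 4.27 to 10.2 CPM in the other 11, and its genotype difference did not pass the test (-0.48, SE 0.31, adjusted p = 0.534).

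Antagonist transcripts were the most abundant of the members. Per kilobase, *Dkk3* (118 CPM per kb), *Sfrp2* (108), *Wif1* (54.0), and *Frzb* (13.1) made up nearly all of the role, with *Sfrp4* at 3.53, *Sfrp1* at 1.77, and *Sfrp5*, *Dkk1*, and *Dkk2* at 20 counts or fewer in each library. Summed per kilobase, the antagonists were at 484 ± 35.3 CPM per kb in ascending/arch and 253 ± 46.5 in descending GFPiSMC SMCs, beside 296 ± 85.8 and 163 ± 58.8 for Tgfbr1/2iSMCKO SMCs.

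*Wif1* (Wnt inhibitory factor 1; ENSMUSG00000020218.11, chromosome 10, 121033960 to 121100650) had the smallest p of the members, and its promoter sequence is shown above. GFPiSMC SMCs had 304, 256, and 269 CPM in ascending/arch and 113, 91.8, and 89.4 CPM in descending libraries, and Tgfbr1/2iSMCKO SMCs 111, 115, and 91.3 CPM and 39.5, 49.8, and 42.1 CPM. The genotypes were separated within each segment, while ascending/arch Tgfbr1/2iSMCKO libraries lay in the range of descending GFPiSMC libraries or just above it. The genotype difference was 2.42-fold (log2 fold change -1.27, SE 0.11, edgeR adjusted p = 1.52e-05), with -1.38 (SE 0.16, adjusted p = 0.000931) in ascending/arch and -1.16 (SE 0.16, 0.00291) in descending SMCs. It kept an adjusted p under 0.05 in the 15 alternatives that tested against no change, with log2 fold changes from -1.35 to -1.15, and did not pass when edgeR tested against the 2-fold change itself.

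*Frzb* (secreted frizzled-related protein 3; ENSMUSG00000027004.3, chromosome 2, 80411970 to 80447625) had the same arrangement of groups at a lower level. It was at 134, 73.2, and 68.9 CPM and 30.7, 33.9, and 31.2 CPM in GFPiSMC SMCs and at 37.0, 27.3, and 39.2 CPM and 12.1, 8.66, and 13.3 CPM in Tgfbr1/2iSMCKO SMCs, ascending/arch before descending. Within a segment no library of one genotype reached the other. The genotype difference was 2.73-fold (log2 fold change -1.45, SE 0.19, edgeR adjusted p = 0.000393), with -1.42 (SE 0.28, adjusted p = 0.0249) in ascending/arch and -1.49 (SE 0.28, 0.0176) in descending SMCs. With each segment fitted alone, the adjusted p was 0.0651 and 0.0517.

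*Sfrp2* (secreted frizzled-related protein 2; ENSMUSG00000027996.13, chromosome 3, 83766321 to 83774316) passed the test by segment and not by genotype. Levels were 457, 411, and 473 CPM and 61.0, 57.1, and 123 CPM in GFPiSMC SMCs and 362, 158, and 322 CPM and 147, 80.3, and 144 CPM in Tgfbr1/2iSMCKO SMCs. The genotype log2 fold change was -0.67 (SE 0.35, edgeR adjusted p = 0.517) in ascending/arch and 0.63 (SE 0.35, 0.610) in descending SMCs, neither past the test. The difference between these effects, 1.3 (SE 0.50), had an unadjusted p of 0.0224 and an adjusted p of 1. Over both segments the value was -0.02 (SE 0.30, adjusted p = 0.986).

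*Dkk3* (ENSMUSG00000030772.6, chromosome 7, 112116017 to 112159057), a divergent Dickkopf member, had the highest level per kilobase of the antagonists in descending SMCs, and *Sfrp2* had it in ascending/arch SMCs of both genotypes. In Tgfbr1/2iSMCKO SMCs this order lay within the spread, at 106 ± 55.9 CPM per kb for *Dkk3* and 130 ± 50.3 for *Sfrp2* in ascending/arch, and at 77.9 ± 46.6 and 57.6 ± 17.6 in descending. *Dkk3* was at 449, 424, and 416 CPM and 582, 721, and 320.0 CPM in GFPiSMC SMCs and at 262, 234, and 572 CPM and 203, 143, and 439 CPM in Tgfbr1/2iSMCKO SMCs. The 3 libraries of high GC content held the highest value of GFPiSMC and the 2 highest of Tgfbr1/2iSMCKO SMCs. Over all 12 libraries the log2 fold change of -0.66 (SE 0.31, edgeR adjusted p = 0.326) did not pass the test. Without the 3 libraries it was -1.06 (adjusted p = 0.0119), and leaving out Tgfbr1/2iSMCKO replicate 3 gave -1.22 (0.0135). The part of GC content in this was not tested.

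**Figure D4:**
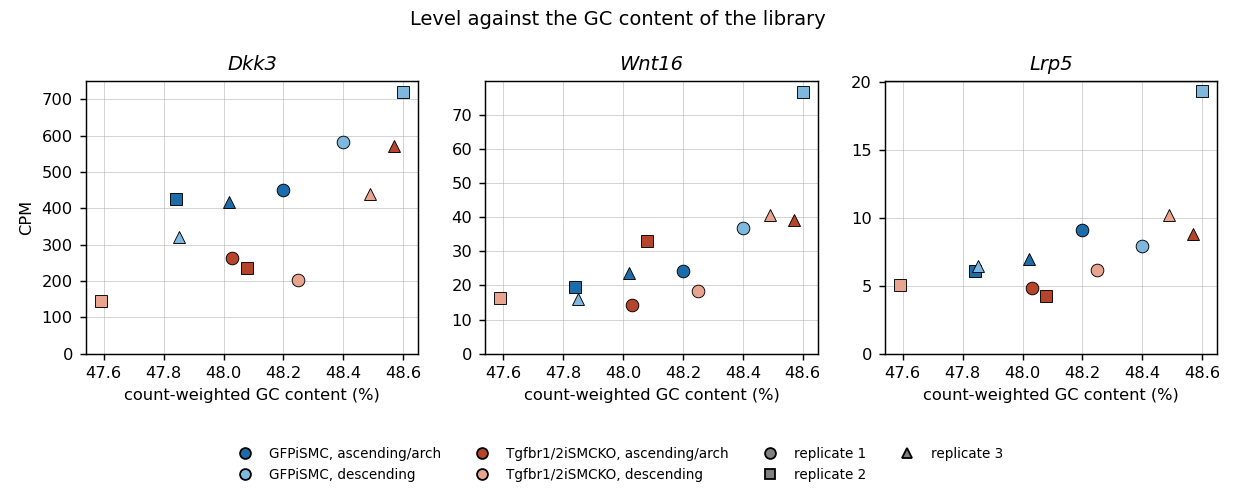
Level of *Dkk3*, *Wnt16*, and *Lrp5* (y axis, CPM) against the count-weighted GC content of the library (x axis, %); color gives the group and the symbol the replicate. The 3 libraries at 48.49% to 48.6% GC hold the highest *Wnt16* values, and the library at 48.6% holds the highest value of each gene.

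The target genes were scarce. *Axin2* (chromosome 11, 108920349 to 108950783), a feedback inhibitor induced by β-catenin, was at 1.94, 1.51, and 1.53 CPM and 1.50, 2.45, and 1.61 CPM in GFPiSMC SMCs and at 2.23, 3.49, and 2.83 CPM and 2.94, 2.14, and 2.16 CPM in Tgfbr1/2iSMCKO SMCs, on 37 to 88 counts. The genotypes overlapped through a single GFPiSMC library at 2.45 CPM. The log2 fold change of 0.58 (SE 0.24) had an unadjusted p of 0.0340 and an edgeR adjusted p of 0.250. *Lef1* (chromosome 3, 131110471 to 131224356), a transcription factor partner of β-catenin, was at 0.733, 0.893, and 2.52 CPM and 0.767, 0.491, and 1.61 CPM in GFPiSMC SMCs and at 2.68, 1.21, and 0.451 CPM and 1.41, 1.40, and 0.675 CPM in Tgfbr1/2iSMCKO SMCs. It rested on 14 to 78 counts, with its lowest values, 0.451 to 0.675 CPM, in the 3 libraries that stood apart. The genotypes overlapped (0.18, SE 0.48, edgeR adjusted p = 0.927).

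Within a segment, 4 of the 34 members had an adjusted p under 0.05 between genotypes, in ascending/arch (1.41% of all genes) as in descending SMCs (1.72% of all genes). They were *Wif1*, *Frzb*, *Fzd1*, and *Fzd5* in both, and without *Fzd1* they also passed the fold threshold, beside 1.15% and 1.42% of all genes. Each of the 4 changed in the same direction in both segments. *Wif1* kept its call in both with any animal left out, and lost it in descending SMCs when that segment was fitted alone (adjusted p = 0.0516). *Frzb*, *Fzd1*, and *Fzd5* lost theirs in at least 1 segment when that segment was fitted alone and when any one GFPiSMC animal was left out. The same held without Tgfbr1/2iSMCKO replicate 1 or 3, and without the 3 libraries that stood apart (adjusted p = 0.0618 to 0.0941 without these libraries). *Frzb* and *Fzd1* also lost a call without Tgfbr1/2iSMCKO replicate 2, and *Fzd1* with every gene of at least 1 count kept. Over all alternatives run, the largest adjusted p in ascending/arch was 0.183 for *Frzb*, 0.155 for *Fzd1*, and 0.16 for *Fzd5*. In descending SMCs it was 0.116, 0.072, and 0.0937. The test of the difference of the genotype effect between segments called no member by edgeR, as for 0.0% of all genes, with 1 member, *Sfrp2*, at an unadjusted p under 0.05, beside 2.95% of all genes. DESeq2 called 8 genes, none of them a member. For *Wif1*, *Frzb*, *Fzd1*, and *Fzd5* this difference was 0.22 (SE 0.23), -0.07 (SE 0.38), -0.13 (SE 0.20), and 0.19 (SE 0.43). In ascending/arch, 11 of the 34 members were separated between the 3 and 3 libraries, beside 19.0% of all genes, and in descending SMCs 7 were, beside 14.9%.

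Along the aorta, the members that differed were all antagonists. Over both genotypes, *Wif1*, *Frzb*, and *Sfrp2* were lower in descending than in ascending/arch SMCs past the thresholds, 3 of the 34 members, beside 0.694% of all genes past the thresholds and 0.506% past them and lower, and no ligand, receptor, co-receptor, or target gene passed. *Sfrp2* fell 3.55-fold (log2 fold change -1.83, SE 0.31, edgeR adjusted p = 0.0121), with its 6 descending libraries at 57.1 to 147 CPM below its 6 ascending/arch libraries at 158 to 473 CPM, as for 0.6% of all genes. *Frzb* fell 2.95-fold (-1.56, SE 0.19, adjusted p = 0.00103) and *Wif1* 2.61-fold (-1.38, SE 0.12, adjusted p = 5.11e-05), and both overlapped between segments only across genotypes. The *Sfrp2* call was lost when any GFPiSMC animal was left out (adjusted p = 0.0593 to 0.0941) and without the 3 libraries that stood apart (0.0711). The next smallest p among the members were those of *Fzd1*, lower in descending SMCs (-0.31, SE 0.10, adjusted p = 0.319), and *Fzd4*, higher (0.42, SE 0.16, adjusted p = 0.657), and neither passed the test.

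In GFPiSMC SMCs, the same 3 antagonists passed the thresholds between segments, beside 0.372% of all genes. The log2 fold changes were -2.48 (SE 0.37, edgeR adjusted p = 0.0136) for *Sfrp2*, -1.53 (SE 0.28, 0.0381) for *Frzb*, and -1.49 (SE 0.16, 0.00189) for *Wif1*. With the animal as a block, *Frzb* lost its call (-1.46, adjusted p = 0.0669). *Wif1* lost its call without GFPiSMC replicate 2 (adjusted p = 0.0594) and under no other alternative run. *Sfrp2* lost its call without GFPiSMC replicate 1 (0.237), without GFPiSMC replicate 2 (0.143), and without the 3 libraries that stood apart (0.112), and *Frzb* without any one GFPiSMC animal (0.172 to 0.616), without Tgfbr1/2iSMCKO replicate 1 (0.118) or 3 (0.0564), and without the 3 libraries (0.175). In Tgfbr1/2iSMCKO SMCs, *Wif1* alone passed (-1.27, SE 0.16, adjusted p = 0.00997), beside 0.108% of all genes, and *Frzb* and *Sfrp2* had -1.60 (SE 0.28, adjusted p = 0.0620) and -1.18 (SE 0.35, 0.651). The *Wif1* call was lost without Tgfbr1/2iSMCKO replicate 1 (0.300) or 2 (0.0660) and without the 3 libraries that stood apart (0.0584).

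**Figure D5:**
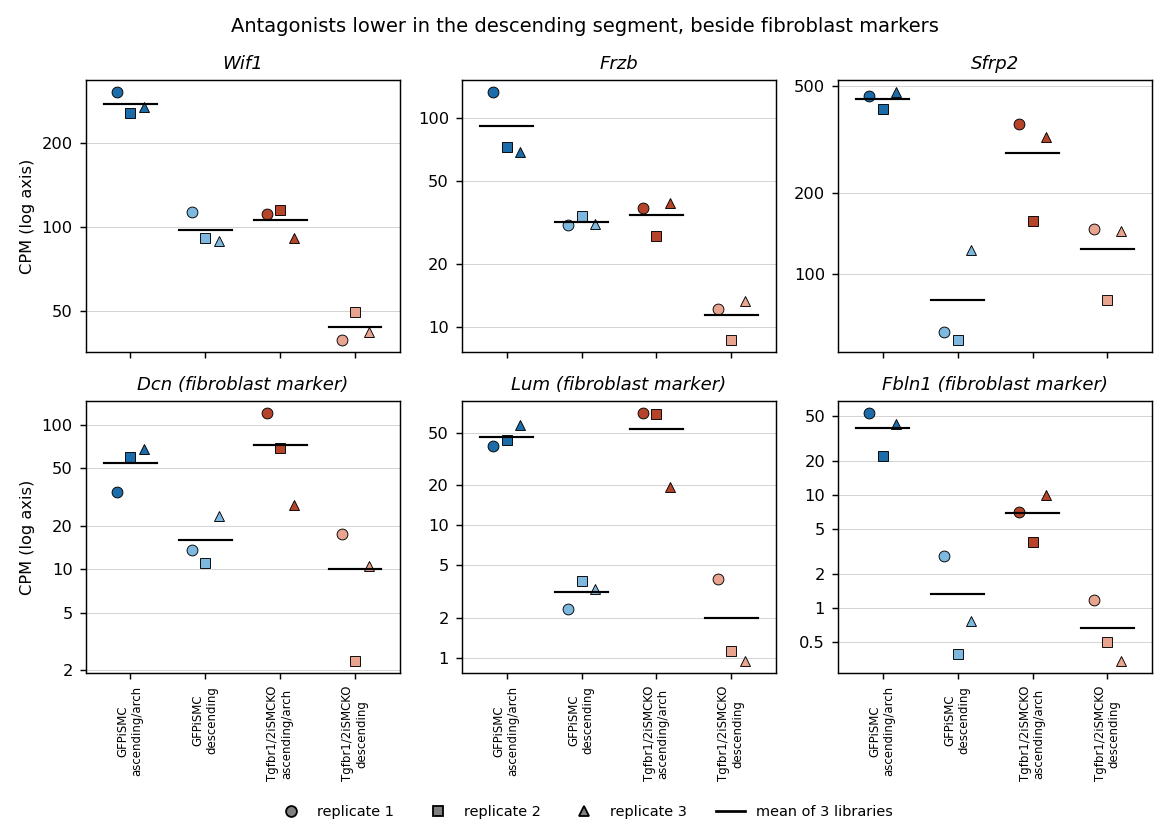
Level in each library (y axis, CPM, log scale) of the 3 antagonists that were lower in the descending segment and of 3 fibroblast markers; symbols mark the replicate and lines the mean of 3 libraries. *Wif1* and *Frzb* fall with genotype and segment, whereas *Sfrp2*, *Dcn*, and *Lum* differ mainly by segment. *Fbln1* falls with segment and is also lower in every Tgfbr1/2iSMCKO library of ascending/arch SMCs, though its genotype difference did not pass the test.

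Fibroblast markers moved with the segment as well. Of the 10 markers, 8 were tested. At an adjusted p under 0.05, 3 were lower in descending SMCs and none was higher, beside 0.797% of all genes called in either direction. The 3 were *Lum* (log2 fold change -4.30, edgeR adjusted p = 0.000344), *Fbln1* (-4.17, 0.00202), and *Dcn* (-2.30, 0.0418). Summed, the 10 markers were at 208 to 249 CPM in ascending/arch and 56.7 to 72.4 CPM in descending GFPiSMC SMCs, and at 124 to 256 CPM and 29.2 to 55.5 CPM in Tgfbr1/2iSMCKO SMCs. *Pi16*, *Dpp4*, *Clec3b*, and *Dpt* each had no counts in at least 1 library. Their part in the segment difference of *Sfrp2*, *Frzb*, and *Wif1* was not tested, and in bulk libraries fewer cells of a type cannot be told apart from less RNA per cell. Between genotypes, where *Wif1* and *Frzb* also fell, the marker sums of ascending/arch libraries overlapped, and those of descending libraries were lower in Tgfbr1/2iSMCKO SMCs (at most 55.5 CPM against at least 56.7 CPM). Of the 8 tested markers, *Col14a1* was lower by genotype (-0.82, edgeR adjusted p = 0.0316). *Fbln1* had a larger fall that did not pass (-1.83, SE 0.52, edgeR adjusted p = 0.0628). In ascending/arch SMCs *Fbln1* was at 21.9 to 52.3 CPM in GFPiSMC and 3.785 to 9.955 CPM in Tgfbr1/2iSMCKO libraries. In that segment 2 of the 8 markers were lower in every Tgfbr1/2iSMCKO library and 2 were higher, beside 19.0% of all genes separated. Of the 8 endothelial markers *Cdh5* was higher (2.97, SE 0.70, edgeR adjusted p = 0.0250), at 0 to 0.513 CPM in GFPiSMC and 0.497 to 2.71 CPM in Tgfbr1/2iSMCKO libraries. In descending SMCs, 4 of the 8 endothelial markers were higher in every Tgfbr1/2iSMCKO library, beside 14.9% of all genes separated, and none passed the test there. They were *Cdh5*, *Tek*, *Tie1*, and *Vwf*, with GFPiSMC means of 0.0804 to 2.11 CPM in that segment. *Pecam1*, the most abundant of the 8, overlapped there, with means of 83.2 CPM in GFPiSMC and 78.2 CPM in Tgfbr1/2iSMCKO SMCs. The part of these markers in the genotype difference was not tested.

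*Sfrp2* is overlapped by an antisense transcript, *Gm26771*, on the opposite strand, and the reads of this pair may likewise not be told apart. *Gm26771* was at 129.6, 110.0, and 144 CPM and 15.3, 11.2, and 32.4 CPM in GFPiSMC SMCs and at 108, 41.7, and 60.0 CPM and 36.2, 23.2, and 25.4 CPM in Tgfbr1/2iSMCKO SMCs, which follows the order of the *Sfrp2* groups. Its segment difference was -2.00 (SE 0.35, edgeR adjusted p = 0.0140).

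Beyond the members, 79 other genes of the pathway were listed by role, and 75 of them were tested. Between genotypes 5 were lower and 3 higher with an adjusted p under 0.05, beside 5.03% of all genes, and their median log2 fold change was 0.09. Lower were *Ccn5*, a matricellular protein often listed as a β-catenin target (-2.61, SE 0.25, edgeR adjusted p = 2.9e-05), *Sulf1*, which edits the heparan sulfate that holds Wnt proteins (-1.42, SE 0.17, 0.000257), *Mcam*, an adhesion molecule that can bind Wnt5a (-1.11, SE 0.12, 0.000106), β-catenin itself, *Ctnnb1* (-0.67, SE 0.09, 0.000506), and *Lgr6*, a receptor for R-spondins (-0.62, SE 0.13, 0.0114).

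Higher were *Nkd2*, a feedback inhibitor that binds Dishevelled (2.04, SE 0.42, edgeR adjusted p = 0.0107), *Ndp*, the norrin ligand of Fzd4 (1.03, SE 0.23, 0.0174), and *Ror1*, a receptor for Wnt5a (0.63, SE 0.14, 0.0182). *Ctnnb1* was at 442 to 517 CPM in GFPiSMC and 248 to 314 CPM in Tgfbr1/2iSMCKO libraries, which did not overlap. *Nkd2* was at 0.343 to 1.40 and 1.65 to 7.02 CPM, on 10 to 218 counts. The 2 called genes among the 13 tested β-catenin targets, *Ccn5* and *Nkd2*, moved in opposite directions, and the median of the 13 was 0.39.

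By segment, *Gpc3*, a glypican that binds Wnt proteins (-3.17, SE 0.43, edgeR adjusted p = 0.00241), and *Rspo3*, a secreted enhancer of the pathway (-0.79, SE 0.16, 0.0427), were lower and *Ccn5* was higher (1.22, SE 0.24, 0.0298) in descending SMCs, 3 of 75 beside 0.797% of all genes. No gene among the 12 tested nuclear effectors or the 12 planar cell polarity genes passed by genotype or by segment. Of the 14 genes of the destruction complex and β-catenin, *Ctnnb1* alone passed by genotype and none by segment.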

How the data were processed

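RNA-seq libraries were made from 9208 to 20000 sorted GFP-positive cells per aortic segment with a low-input kit whose strand setting is not stated. Per the study's methods and the submitters' processing notes, the authors trimmed reads with Trim Galore, aligned them to mm10 with HISAT2, and estimated counts per gene with StringTie against a GENCODE annotation. The deposited values are whole-number estimated counts (expected counts) that are not normalized, and multi-copy or overlapping genes may share reads.

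Genes were filtered with edgeR's filterByExpr and fitted with edgeR 4.0.16 (quasi-likelihood, TMM factors, all 4 groups, Benjamini-Hochberg adjustment over 22320 genes). The thresholds were an adjusted p of 0.05 and a 2-fold change. Genotype effects averaged both segments, and an animal's segments were taken as separate libraries. Same-numbered libraries of a genotype were taken as segments of 1 animal. Correlations of their deviations were 0.187, -0.242, and 0.0240 in GFPiSMC and 0.0612, 0.377, and 0.661 in Tgfbr1/2iSMCKO mice. SE was the log2 fold change divided by the square root of F. On simulated data with 4-fold changes in 199 of the tested genes, the genotype test recovered 85.4% of them, with 1.16% false calls. For the segment test in GFPiSMC SMCs, with 200 changed genes, these values were 53% and 5.36%. The simulated libraries were drawn independently, with no shared animal. These rates therefore do not cover the pairing of libraries within an animal, nor changes smaller than 4-fold. The changed genes were drawn from those with a mean above 1 CPM, so the recovery rates do not cover members below that level. Members and gene lists were chosen with earlier results of these data known. Members described in every library were those with an adjusted p under 0.05 in any comparison, the 3 with the highest mean CPM in each role, and both targets, with *Lrp5* and *Sfrp2*'s antisense partner added after their values were seen. Alternatives were DESeq2 1.42.0, limma 3.58.1, other scaling and filters, counts summed per animal, an animal block, and leaving out animals or the 3 libraries of highest GC content, the last chosen after seeing the data.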

Additional observations from a re-analysis of the deposited data

How the results depend on the processing

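Between genotypes, *Frzb*, *Wif1*, *Fzd1*, and *Fzd5* kept their direction and adjusted p under 0.05 in the 15 alternatives over both segments that tested against no change, with log2 fold changes of -1.58 to -1.29, -1.35 to -1.15, -0.86 to -0.69, and 1.41 to 1.91. The 5 members past the thresholds became 3 to 5 with an animal left out and 0 when edgeR tested against the 2-fold change itself, and the 8 with an adjusted p under 0.05 became 4 to 7 with an animal left out and 5 with counts summed per animal. Of the 3 within ascending/arch, 1 to 2 were left without an animal and 1 without the 3 libraries of highest GC content. Of the 3 within descending SMCs, the count was 1 to 4 without an animal, 1 with the segment fitted alone, and 1 without those libraries. Of the 3 between segments in GFPiSMC SMCs, 0 to 3 were left without an animal and 1 without those libraries. The 1 in Tgfbr1/2iSMCKO SMCs became 0 to 1 without an animal, 0 without those libraries, and 2 with DESeq2, with every gene of at least 1 count, or with a mean of at least 50 counts. With the replicate block (the animal, or the shared number between genotypes), 5 members passed the thresholds by genotype and 7 had an adjusted p under 0.05, *Fzd8* losing its call (0.0593), and 2 passed between segments in GFPiSMC SMCs. The block changed no other call. Between genotypes a shared number names different animals, and the correlations of such libraries ran from -0.527 to 0.216. These correlations cannot decide whether the numbers mark anything shared across genotypes, because those within GFPiSMC animals lay in the same range. Signs turned, without passing, for *Lef1* without GFPiSMC replicate 1 (-0.05) or 2 (-0.10) or Tgfbr1/2iSMCKO replicate 1 (-0.30), for *Sfrp2* by genotype with library size only (0.10) and without GFPiSMC replicate 3 (0.17) or Tgfbr1/2iSMCKO replicate 2 (0.27), and for *Wnt16* without GFPiSMC replicate 2 (0.10) or Tgfbr1/2iSMCKO replicate 1 (0.07). Over the animals left out, these values ran from -0.30 to 0.85, -0.17 to 0.27, and -0.60 to 0.10. The causes were not tested. Scaling by library size only moved the median log2 fold change of all genes from 0.04 to 0.16. Counts under 100, as for *Wnt5b*, *Axin2*, and *Lef1* in most libraries, limit what these tests can show.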
